A study of Arundo donax with 9 samples.

Results

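The unigenes described here encode the calcium sensors of the giant reed (Arundo donax) leaf and the kinases that calcium or calmodulin activates. They were chosen by the Swiss-Prot protein name of their best hit, which had to contain calmodulin, calcium-binding protein CML, Calcium-dependent protein kinase or Calcineurin B-like protein, while calmodulin-binding proteins were left out. This rule found 520 of the 255855 unigenes, and no expression value entered it. Leaves of the G2 clone were sequenced in 9 libraries, 3 from plants irrigated weekly with water without NaCl (G2-CK), 3 from plants given 250 mM NaCl (G2-S3, severe salt stress) and 3 from plants given 420 mM NaCl (G2-S4, extreme salt stress). By the study's methods the plants were grown from rhizomes in pots, 1 rhizome in each, and the third, non-senescing leaf was harvested after a treatment of several months. All plants belong to 1 asexually propagated clone, so the values describe a single genotype. The comparisons ask which of these sensors and kinases are up-regulated or down-regulated at each salt dose, and are written S3/CK (G2-S3 vs G2-CK), S4/CK (G2-S4 vs G2-CK) and S4/S3 (G2-S4 vs G2-S3).

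Calcium enters the cytosol of a plant cell when the cell meets salt, and proteins with EF-hands, helix-loop-helix folds that bind calcium, read the signal. Calmodulin and the calmodulin-like proteins (CML) have no catalytic activity and act by binding other proteins, calcineurin B-like proteins (CBL) bind and activate the CBL-interacting kinases, and calcium-dependent protein kinases (CDPK) carry EF-hands and a kinase domain in 1 polypeptide. In the salt overly sensitive (SOS) pathway, described first in Arabidopsis, CBL4 (SOS3) or CBL10 activates the kinase CIPK24 (SOS2), which activates the plasma membrane Na+/H+ exchanger SOS1.

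The members fell into 32 calmodulin unigenes, 129 CML unigenes, 212 CDPK unigenes, 81 CBL unigenes and 66 others, the last being calmodulin-dependent and calmodulin-regulated kinases, calmodulin-interacting protein 111, the calmodulin methyltransferase and calmodulin-related protein. They carried 85 protein names, with a median of 5 unigenes and at most 23 per name. A de novo assembly can split a gene over several unigenes, and the study describes giant reed as polyploid. Whether the unigenes of a name are parts of the same gene, copies of it or different genes was not tested. An EF-hand Pfam domain was found in 29 of 32 calmodulins, 114 of 129 CMLs, 65 of 81 CBLs and 103 of 212 CDPKs, and a kinase domain in 142 CDPKs, of which 63 had both. The KEGG orthology number was the same for 26 calmodulins (K02183), 100 CMLs (K13448), 183 CDPKs (K13412) and 80 CBLs (K06268). The best hit was a rice protein for 384 members and an Arabidopsis protein for 94, so the numbers in names such as CML29 or CDPK21 (Calcium-dependent protein kinase 21) are those of the rice or Arabidopsis protein.

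Each library list holds only unigenes above 0.3 FPKM (fragments scaled to unigene length and to library depth), and a member missing from a list is called unlisted below. Between 376 and 412 members were listed per library, and 286 (55.0%) were listed in all 9, against 37.1% of all unigenes. The members were longer than the other unigenes (median 1170 bp against 831 bp over all). The library totals were 22999700 to 25671100 reads. Tests were made on read counts per unigene and on the counts summed over all unigenes with the same protein name, with edgeR's quasi-likelihood test and Benjamini-Hochberg adjustment over all unigenes or names of the table, and every adjusted p below is from this test unless another tool is named. A unigene or name is called where the adjusted p is under 0.05. Of the members 367 had enough reads for the test, and of the names 80.

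The summed level of all members stayed within a narrow range. In read counts scaled to counts-per-million (CPM), the 520 members together took 1717 to 1946 in G2-CK and 1701 to 1790.5 in G2-S3, against 1941 to 2013 in G2-S4. The class sums differed by at most 1.25-fold between any pair of group means. The calmodulins took 159, 167 and 162 CPM in the G2-CK libraries, 168, 188 and 176 in G2-S3 and 197, 185 and 191 in G2-S4. The CBLs took 139, 145 and 136 CPM in G2-CK, 139, 138 and 133 in G2-S3 and 159.7, 156 and 158 in G2-S4, so the G2-S4 libraries lay above all others. The CMLs took 472 to 570.2 CPM in G2-CK and 456 to 524 in G2-S3, against 583 to 637 in G2-S4, and the CDPKs, with 799.6 to 927, 793 to 881 and 865 to 889 CPM, overlapped between all groups. These sums are descriptions and were not tested. With the same scaling, the median log2 fold change in S4/CK was 0.09 over all protein names and -0.03 over all unigenes tested. Small rises of a class sum are to be read beside these values.

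**Figure D1:**
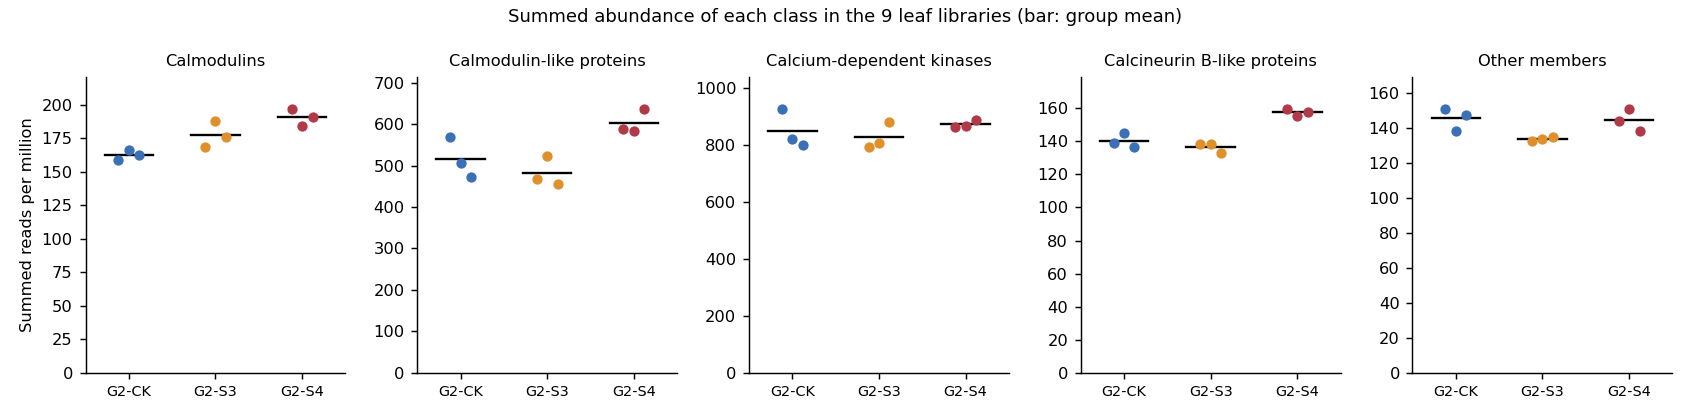
Summed CPM of the 5 classes (y axis, starting at 0) in each of the 9 libraries, by group (x axis), with points for libraries and bars for group means. The 3 G2-S4 points lie above the 3 G2-CK points for the calmodulins, the CMLs and the CBLs, and overlap them for the CDPKs and the other members.

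Levels per length were uneven. On the FPKM scale, 65 members had a mean of at least 10 over the 9 libraries and 241 a mean under 1, and the 20 members with most reads held 42.2% of all reads of the members. Other leaf transcripts moved far more than the class sums between the groups: the summed CPM of the Rubisco small chain was 2966 to 3527 in G2-CK and 1998 to 2311 in G2-S3, against 566 to 665 in G2-S4, and that of the chlorophyll a-b binding proteins 2757 to 3087, 2349 to 2752 and 1307 to 1607. The list of senescence genes (chlorophyll breakdown enzymes and a cysteine protease) took 3195 to 3930 CPM in G2-CK and 1795 to 2158 in G2-S3, against 1559 to 2220 in G2-S4, nicotianamine and root-specific proteins 3.45 to 6.72 CPM in any library, and pollen-specific proteins 39.5 to 63.6. In whole leaves, fewer cells of a type and less RNA per cell cannot be told apart, and the part of these shifts in the results below was not tested.

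In S3/CK few of the sensors and kinases moved. CDPK21 was up-regulated 4.59-fold, CML35, at under 8 CPM in every library, 2.06-fold, and CML18, CDPK3, CDPK25 and CDPK6 by 0.42 to 0.82 on the log2 scale, while CBL7, CML29, CML48 and the Calcium/calmodulin-dependent serine/threonine-protein kinase 1 were down-regulated. At the level of unigenes, 19 of the 367 tested members (5.18%) were called, 13 higher and 6 lower, against 5.75% of all 127209 unigenes tested (3.42% higher and 2.33% lower). At the level of protein names, 10 of 80 (12.5%) were called, 6 higher and 4 lower, against 15.9% of all 12233 names tested (10.4% higher and 5.51% lower). The share of called members was therefore near that of the whole table. The median log2 fold change over the tested members was -0.02, and over all unigenes tested -0.00. With size factors of the DESeq2 type in place of TMM, the called names were 4 higher and 7 lower. The calls also turned on single libraries. Without G2-CK replicate 1, 2 or 3 in turn, 6, 1 and 2 members were called, without G2-S3 replicate 1, 2 or 3, 4, 4 and 27, and without G2-S4 replicate 1, 2 or 3, 10, 9 and 12. The corresponding counts of protein names were 4, 0 and 1, then 1, 2 and 15, then 6, 6 and 9. In log2 CPM over all unigenes tested, G2-S3 replicate 3 lay nearer the controls than its group did. It correlated with the G2-CK libraries at 0.934 to 0.936, against 0.904 to 0.920 for G2-S3 replicates 1 and 2. With G2-S3 replicates 1 and 2 it correlated at 0.942 and 0.933. The part of this library in the small number of calls was not tested.

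In S4/CK the classes moved in both directions. Among the sensors CML18 was up-regulated 3.63-fold, CBL4 2.07-fold, CML10 1.89-fold, and CML8 and CBL10 1.69-fold each, and CBL7 and CML29 were down-regulated. Among the kinases CDPK21, CDPK1, CDPK3 and CDPK24 were up-regulated by 1.10 to 2.22 on the log2 scale, and CDPK4, CDPK9 and CDPK22 down-regulated. Of the tested members 97 of 367 (26.4%) were called, 56 higher and 41 lower, against 28.1% of all unigenes tested (14.2% higher and 13.8% lower), and the 3 libraries of G2-S4 did not overlap the 3 of G2-CK in any of the 97, as in 98.9% of all called unigenes. Of the protein names 31 of 80 (38.8%) were called, 22 higher and 9 lower, against 51.6% of all names (31.6% higher and 20% lower). The median log2 fold change of the members was 0.07 for unigenes and 0.01 for names, beside -0.03 and 0.09 over the whole table. Leaving out any library gave 68 to 106 called members and 25 to 33 called names. With size factors of the DESeq2 type in place of TMM, 31 names were called as well, but 17 higher and 14 lower.

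In S4/S3, the test of the difference between the doses, 38 of 367 members (10.4%) were called, 30 higher and 8 lower in G2-S4, against 14.1% of all unigenes tested (7.24% higher and 6.88% lower), with no overlap between the groups in any of the 38, as in 99.0% of all called unigenes. Of the names 19 of 80 (23.8%) were called, 14 higher and 5 lower, against 34.7% of all names (20.7% higher and 14.0% lower). CML18, CML8, CML10, CML27, CBL4, CBL10, CDPK1, CDPK3 and CDPK24 were higher at the higher dose by 0.60 to 1.24 on the log2 scale, and CBL7, CDPK6, CML30 and CDPK25 were lower, of which CBL7, CML30 and CDPK25 lost their call in 6 to 8 of 16 alternatives. Without G2-S4 replicate 2 or replicate 3 the number of called members was 23 and 24. Since S3/CK and S4/CK share their control libraries, their values are set side by side below without a count of overlap.

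**Figure D2:**
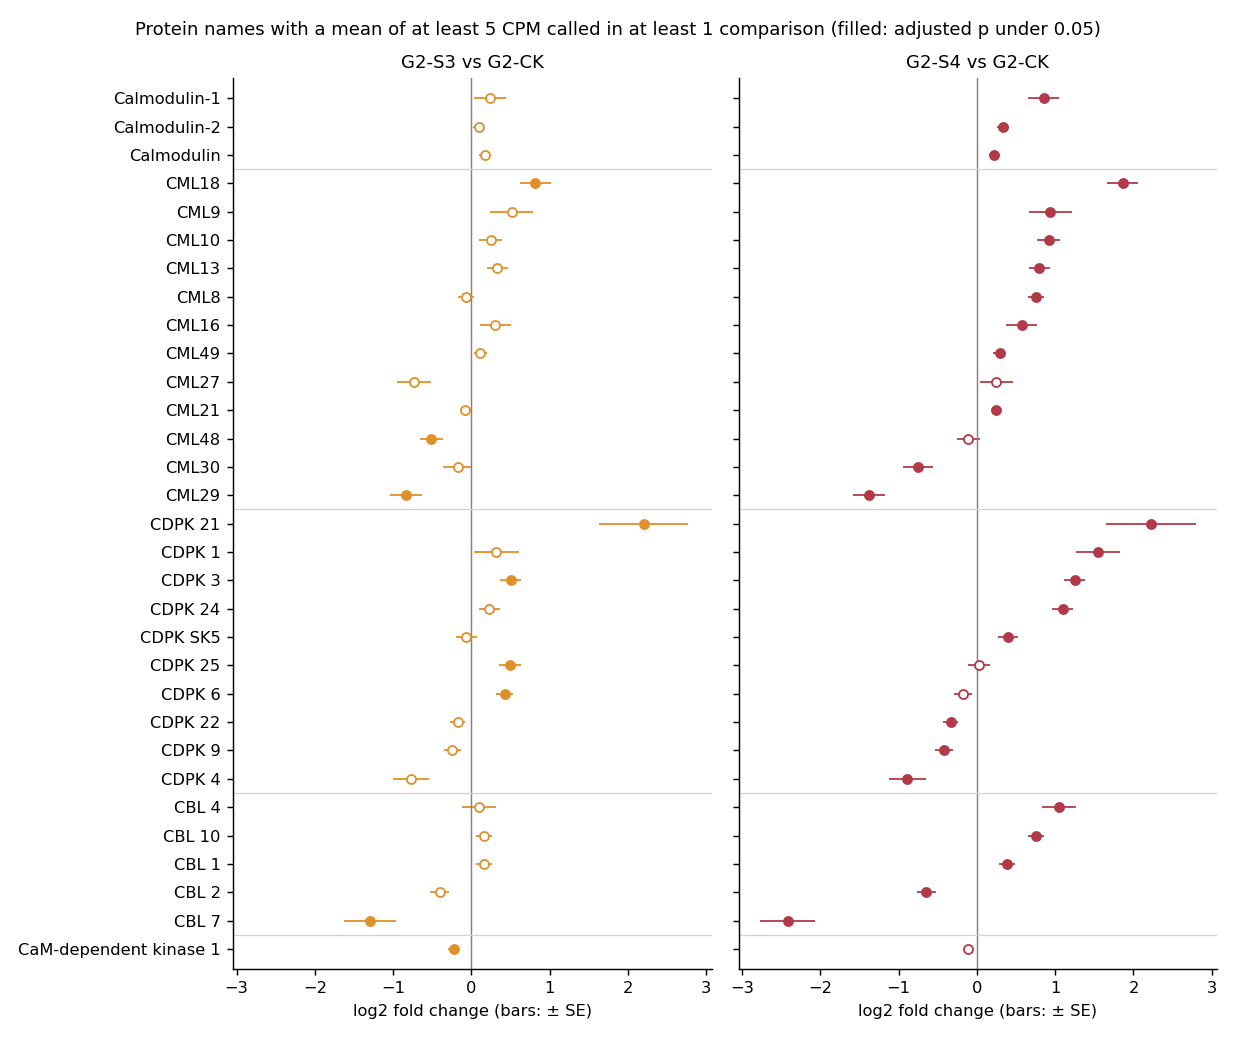
Log2 fold change with its standard error (x axis) of each protein name called in at least 1 comparison at a mean of at least 5 CPM (y axis, grouped by class), in S3/CK and in S4/CK, with filled points where the adjusted p was under 0.05. CDPK21, with 2.20 and 2.22, lies equally far to the right in both panels, and CBL7, with -1.30 and -2.42, lies farthest to the left in both.

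Calmodulin itself, the most widespread calcium sensor, was abundant in every library. On the FPKM scale, the protein name Calmodulin held 72.0% ± 0.31 (SD, n = 3) of the summed FPKM of its class in G2-CK and Calmodulin-2 24.9% ± 0.34. Cluster-14027.171208, the 1 unigene named Calmodulin-2, had FPKM of 171, 182 and 167 in G2-CK, 160.5, 177 and 182 in G2-S3 and 201, 197.5 and 206 in G2-S4. Cluster-14027.169568, a Calmodulin unigene of 821 bp, had 76.1, 82.2 and 87.6 in G2-CK, 86.9, 96.3 and 90.4 in G2-S3 and 107, 99.8 and 98.1 in G2-S4. For both unigenes the G2-S4 libraries lay above those of G2-CK, and the log2 fold changes in S4/CK were 0.33 ± 0.10 (SE; adjusted p = 0.0275) and 0.44 ± 0.10 (adjusted p = 0.00861). The first of these calls was lost without any 1 of the 6 libraries compared, where its log2 fold change was between 0.29 and 0.36, and with DESeq2. Tested among the protein names, Calmodulin-2, which holds only this unigene, was called in S4/CK as well (0.33, adjusted p = 0.0049). That call held in all 16 alternatives, with values between 0.23 and 0.36. Cluster-14027.157345, a fragment of 212 bp, had the highest FPKM of the class (249, 289.9 and 257 in G2-CK, 272, 387 and 490 in G2-S3, and 341, 352 and 344 in G2-S4) and was not called in any comparison. The FPKM of this fragment is part of the share of Calmodulin given above.

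As a sum over its 18 unigenes, Calmodulin took 98.8, 104 and 105 CPM in G2-CK, 111, 121 and 114 in G2-S3 and 127, 112 and 119.7 in G2-S4. The log2 fold change was 0.22 ± 0.07 in S4/CK (adjusted p = 0.0246), a call that did not hold with size factors of the DESeq2 type, with DESeq2, or without G2-CK replicate 1 or 2 or G2-S4 replicate 1 or 3, where the value was between 0.12 and 0.23. Calmodulin-1, a name of 7 unigenes, rose from 3.60, 4.52 and 4.06 CPM in G2-CK, with 3.82, 6.18 and 4.37 in G2-S3, to 6.98, 6.94 and 8.13 in G2-S4 (0.85 ± 0.20, adjusted p = 0.00595), a call lost where only unigenes listed in all 9 libraries were summed (0.68, adjusted p = 0.0622). Calmodulin-6 had 8.12, 9.64 and 8.21 CPM in G2-CK and 4.11, 8.14 and 3.64 in G2-S4, and was not called (-0.71 ± 0.28, adjusted p = 0.0615). It was called lower with size factors of the DESeq2 type (adjusted p = 0.0422), with DESeq2 (adjusted p = 0.0317) and without G2-S4 replicate 2 (-1.16, adjusted p = 0.00199). In S3/CK, 0 of 24 tested calmodulin unigenes and 0 of 6 names were called by edgeR, with 5 unigenes and 1 name at an unadjusted p under 0.05, and by DESeq2 none of either. In S4/CK, 6 of the 24 unigenes rose and 2 fell (33.3% called, against 28.1% of all unigenes tested).

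Of 6 members named Calmodulin with an animal calmodulin as best hit, 5 had Nr hits in Phytophthora parasitica, an oomycete, or in a red alga, and 1 had an Arabidopsis Nr hit and took 1.11 to 2.50 CPM in every library. Cluster-16552.0 was unlisted in all G2-CK and G2-S3 libraries and had 41, 20 and 16 reads in G2-S4. The 5 members without a plant hit together had 0, 0 and 4 reads in G2-CK, 2, 2 and 0 in G2-S3 and 51, 26 and 24 in G2-S4, at most 1.799% of the reads summed as Calmodulin. The barley entry of Calmodulin, which holds none of them, rose by 0.41 ± 0.08 in S4/CK (adjusted p = 0.0030). The spinach entry fell by 0.25 ± 0.09 (adjusted p = 0.0458), and the beech, sunflower, lily, wheat and Tetrahymena entries were not called. The chicken entry, which holds 2 of the 5 unigenes without a plant hit, was called higher (adjusted p = 0.0053). It had no listed reads in G2-CK or G2-S3.

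Among the CMLs, small EF-hand proteins that plants have in far greater number than animals, CML29 and CML8 moved in opposite directions. CML29 was the CML with the highest level per length in control leaves. Its unigene Cluster-14027.157819 had FPKM of 272, 225 and 186 in G2-CK, 115, 153 and 93.2 in G2-S3 and 80.2, 70.5 and 91.2 in G2-S4. All control libraries lay above all salt libraries, while the lowest G2-S3 library and the highest G2-S4 library were nearly level. The log2 fold change was -0.84 ± 0.21 in S3/CK (adjusted p = 0.0416, lost in 12 of 16 alternatives) and -1.37 ± 0.21 in S4/CK (adjusted p = 0.000834). The other CML29 unigene, Cluster-14027.184615, had 21.2, 20.1 and 19.2 FPKM in G2-CK, 11.2, 11.8 and 9.5 in G2-S3 and 9.70, 5.21 and 5.56 in G2-S4, and was called in S4/CK (-1.43). The call of CML29 as a sum in S3/CK was lost without G2-CK replicate 1 or 2 or G2-S3 replicate 1, where its log2 fold change was between -0.69 and -0.85, and that in S4/CK held under every alternative run.

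CML8 was called only against the higher dose. Its most abundant unigene, Cluster-14027.113403, had FPKM of 85.5, 102 and 94.3 in G2-CK, 96.5, 106 and 70.9 in G2-S3 and 144, 169.8 and 162 in G2-S4. Cluster-14027.113402 had 50.0, 52.0 and 51.0 in G2-CK, 44.9, 45.2 and 46.9 in G2-S3 and 76.0, 76.3 and 75.2 in G2-S4, a spread within G2-S4 of about 1 FPKM. Over its 8 unigenes, CML8 had a log2 fold change of -0.07 ± 0.10 in S3/CK, 0.75 ± 0.10 in S4/CK (adjusted p = 0.000381) and 0.82 ± 0.10 in S4/S3 (adjusted p = 0.000587). The other 6 tested unigenes of this name, each under 6 FPKM in every library, were not called in any of these.

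CML18 rose at each step. Its unigene Cluster-14027.237834 had FPKM of 5.37, 3.88 and 5.34 in G2-CK, 10.4, 11.6 and 9.84 in G2-S3 and 21.6, 15.8 and 24.9 in G2-S4, with no overlap between any of the groups. The log2 fold changes were 1.19 ± 0.20 in S3/CK (adjusted p = 0.00758), 2.23 ± 0.20 in S4/CK (adjusted p = 3.2e-05) and 1.04 ± 0.19 in S4/S3 (adjusted p = 0.0046). These 3 calls held in every alternative run, and among the 11 named unigenes called in S3/CK no other did. The S3/CK call of CML18 as a sum was lost without G2-CK replicate 2 or 3 or G2-S3 replicate 1 or 2, where it was between 0.71 and 0.85. A second CML18 unigene, Cluster-14027.237832, was unlisted in G2-CK replicates 2 and 3 and had 0.63 FPKM in replicate 1, against 1.3, 1.17 and 3.91 in G2-S4. Its call in S4/CK (2.51 ± 0.51, adjusted p = 0.00445) was lost where missing values were set to 0.

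Among the other CMLs up-regulated in S4/CK, CML10 took 35.0, 31.6 and 27.6 CPM in G2-CK, 39.4, 42.1 and 30.2 in G2-S3 and 53.6, 55.6 and 68.7 in G2-S4 (0.92 ± 0.15, adjusted p = 0.000926). Its unigene of highest FPKM, Cluster-14027.178830, was not called (116, 119.5 and 87.3 in G2-CK, and 99.8, 134 and 149 in G2-S4), whereas Cluster-14027.178835 rose from 1.52, 0.92 and 1.46 FPKM to 4.46, 3.50 and 3.63 (1.71 ± 0.24, adjusted p = 0.000506). CML13 rose by 0.80 ± 0.14 (adjusted p = 0.00119) and CML9 by 0.94 ± 0.27 (adjusted p = 0.0170), the latter not without G2-CK replicate 1 or 2 or G2-S4 replicate 2, where its log2 fold change was between 0.79 and 0.84. CML16, CML49 and CML21 rose by 0.57, 0.29 and 0.25, and these calls were lost with size factors of the DESeq2 type and with DESeq2. They were also lost without G2-CK replicate 2 or 3, G2-S3 replicate 1 or G2-S4 replicate 1 or 3 and with only the 2 groups compared for CML16 (0.41 to 0.75 over the alternatives), without G2-CK replicate 2 or 3 or G2-S4 replicate 1 for CML49 (0.20 to 0.35), and without G2-CK replicate 3 or G2-S4 replicate 1 or 2 for CML21 (0.15 to 0.28). For CML16 the groups overlapped, with 5.62 CPM in G2-CK replicate 1 and 5.47 in G2-S4 replicate 2.

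CML30 fell from 26.8, 21.3 and 19.7 CPM in G2-CK, with 16.9, 16.7 and 26.4 in G2-S3, to 13.8, 13.6 and 12.9 in G2-S4 (-0.75 ± 0.19, adjusted p = 0.00867). A unigene of this name went another way. Cluster-14027.261977, with an Arabidopsis best hit, had FPKM of 1.35, 0.40 and 0.63 in G2-CK, 2.60, 4.91 and 2.17 in G2-S3 and 0.68, 0.76 and 1.07 in G2-S4, so that G2-S3 lay above both other groups (2.08 ± 0.47 against G2-CK, adjusted p = 0.0289, lost in 10 of 16 alternatives). CML27 was lowest at the lower dose, with 11.6, 8.81 and 10.5 CPM in G2-CK, 5.56, 8.46 and 4.58 in G2-S3 and 10.6, 13.1 and 13.2 in G2-S4. Its sum was called in S4/S3 (0.99 ± 0.22, adjusted p = 0.00864) and not in S3/CK (adjusted p = 0.0527), where its unigene Cluster-14027.194043 was (-1.07 ± 0.23, adjusted p = 0.0238), though not without any 1 of the G2-CK libraries or G2-S3 replicate 1, nor with no filter on low counts (between -0.93 and -1.15). CML48 took 11.4, 11.9 and 10.2 CPM in G2-CK, 6.71, 7.66 and 9.11 in G2-S3 and 11.8, 9.19 and 9.97 in G2-S4, and its call in S3/CK (-0.51 ± 0.15, adjusted p = 0.0462) was lost in 12 of 16 alternatives. CML7, another abundant name, had 32.0 to 38.3 CPM in G2-CK and 38.4 to 43.4 in G2-S3, against 34.7 to 43.6 in G2-S4, and was not called.

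The make-up of the class shifted with these names. Of the summed FPKM of the CMLs, CML29 held 26.005% ± 2.43 in G2-CK, 15.8% ± 2.99 in G2-S3 and 8.65% ± 0.74 in G2-S4 (SD, n = 3 each). CML8 held 16.3% ± 2.06, 17.1% ± 1.82 and 23.9% ± 2.11, and CML10 17.4% ± 1.22, 20.4% ± 2.52 and 23.8% ± 2.38. The shares of CML29 did not overlap between any of the groups. Shares were not tested, and a sum of FPKM gives short unigenes more weight than their reads do.

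**Figure D3:**
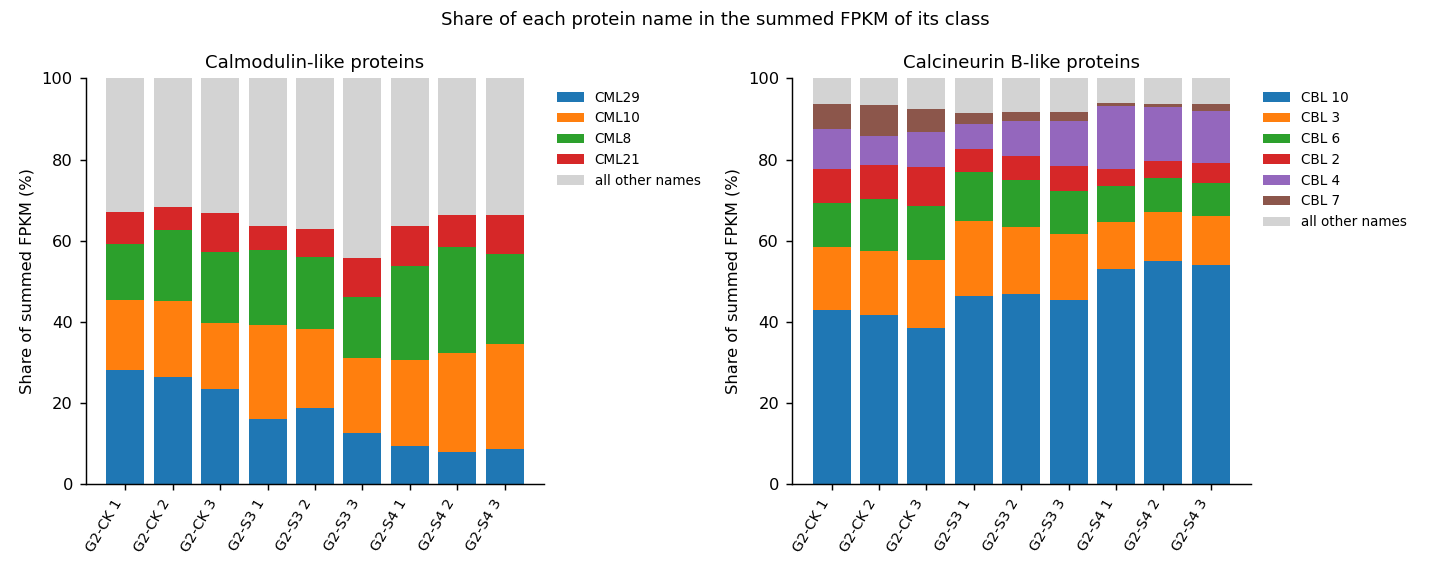
Share in percent of the summed FPKM of the CMLs and of the CBLs (y axis, 0 to 100) held by the leading protein names in each of the 9 libraries (x axis), stacked, with all other names in grey. CML29 falls from 26.005% of its class in G2-CK to 8.65% in G2-S4, and CBL10 goes from 40.9% to 54.0% of its class.

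The CBLs hand the calcium signal to CBL-interacting kinases, and their 9 names split into 3 that rose in S4/CK, 2 that fell and 4 that were not called (55.6% called, against 51.6% of all names). With size factors of the DESeq2 type the split was 3 higher and 3 lower, and with DESeq2 2 higher and 3 lower. CBL4, whose rice and Arabidopsis counterparts are the SOS3 sensor of the SOS pathway, took 13.3, 9.56 and 10.6 CPM in G2-CK, 8.28, 12.03 and 15.5 in G2-S3 and 26.3, 21.5 and 21.6 in G2-S4. The G2-S3 libraries spanned those of G2-CK, and the G2-S4 libraries lay above both (1.048 ± 0.22 against G2-CK, adjusted p = 0.00339, and 0.95 ± 0.22 against G2-S3, adjusted p = 0.00909). Cluster-14027.245231 had the largest rise in FPKM of its unigenes, with values of 6.66, 4.99 and 5.21 in G2-CK, 4.74, 5.71 and 5.73 in G2-S3 and 15.9, 14.6 and 14.3 in G2-S4 (1.53 ± 0.17, adjusted p = 0.000117). Cluster-14027.257981 moved the same way, from 3.55, 2.57 and 3.13 FPKM in G2-CK and 1.98, 3.19 and 2.65 in G2-S3 to 8.04, 5.78 and 7.02 in G2-S4 (1.31 ± 0.23, adjusted p = 0.00207). Of the other 4 CBL4 unigenes 1 was called in S4/CK, and 1 of these 4 was called higher in S3/CK.

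CBL10, which in Arabidopsis acts with CIPK24 in the shoot, was the CBL of highest level per length. Its 19 unigenes together took 33.0, 33.1 and 28.9 CPM in G2-CK, 37.0, 39.0 and 30.0 in G2-S3 and 53.1, 53.6 and 53.5 in G2-S4 (0.75 ± 0.10 against G2-CK, adjusted p = 0.000356, and 0.60 ± 0.10 against G2-S3, adjusted p = 0.00255). Of its 13 tested unigenes 5 rose in S4/CK and none fell. Cluster-14027.205685 was flat at the lower dose, with 2.68, 1.58 and 1.55 FPKM in G2-CK, 1.73, 2.15 and 1.13 in G2-S3 and 5.73, 4.47 and 4.42 in G2-S4 (1.47 ± 0.28, adjusted p = 0.00295). Cluster-14027.102874 had intermediate values in G2-S3, with 23.1, 27.9 and 19.6 FPKM in G2-CK, 32.3, 33.2 and 34.6 in G2-S3 and 44.0, 46.2 and 45.1 in G2-S4 (1.04 ± 0.17 in S4/CK, adjusted p = 0.00107, and 0.63 ± 0.17 in S3/CK, adjusted p = 0.0530). Cluster-14027.102877, with 16.2 to 22.1 FPKM in G2-CK and 17.03 to 21.97 in G2-S4, was not called, so the unigenes of this name differed in what they did.

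CBL7 went down. It took 12.002, 14.8 and 10.9 CPM in G2-CK, 6.20, 4.96 and 4.16 in G2-S3 and 1.52, 1.56 and 3.94 in G2-S4, and no pair of groups overlapped. The log2 fold change was -1.30 ± 0.33 in S3/CK (adjusted p = 0.0298) and -2.42 ± 0.35 in S4/CK (adjusted p = 0.000477). The first call was lost without any 1 of the G2-CK libraries and without G2-S3 replicate 1 or 2, where the value was between -1.17 and -1.46, and the second held in every alternative, with values between -1.56 and -3.02. Of 5 tested unigenes 4 fell in S4/CK, among them Cluster-14027.249609 (3.51, 4.57 and 3.34 FPKM in G2-CK, 2.62, 1.47 and 1.52 in G2-S3 and 0.44, 0.51 and 1.24 in G2-S4) and Cluster-14027.249613 (2.98, 2.78 and 2.04 in G2-CK and 0.59, 0.36 and 0.55 in G2-S4). Cluster-14027.249619 had 4.13, 4.71 and 2.17 FPKM in G2-CK and was unlisted in 2 of the 3 G2-S4 libraries.

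CBL2, which sits on the vacuolar membrane in rice and Arabidopsis, had 10.9, 11.5 and 12.1 CPM in G2-CK, 8.66, 8.58 and 8.78 in G2-S3 and 7.74, 6.21 and 8.13 in G2-S4. It fell by 0.64 on the log2 scale in S4/CK (SE 0.12, adjusted p = 0.00222), and in S3/CK the value was -0.41 ± 0.12 (adjusted p = 0.0520). CBL1, a plasma membrane sensor in Arabidopsis, rose by 0.39 ± 0.10 in S4/CK (adjusted p = 0.00967), from 10.3 to 11.5 CPM to 13.6 to 14.9, though not with DESeq2. CBL3 and CBL6, with 27.9 to 29.8 and 27.5 to 31.1 CPM in G2-CK, had log2 fold changes between -0.16 and 0.04 in the 3 comparisons and were not called. In the summed FPKM of the class, CBL10 went from 40.9% ± 2.30 in G2-CK to 54.0% ± 0.97 in G2-S4, CBL4 from 8.54% ± 1.29 to 13.9% ± 1.59 and CBL7 from 6.43% ± 0.98 to 1.02% ± 0.60. Counted in reads the part of CBL10 was smaller, with a mean of 31.7 of the 140 CPM of the class in G2-CK and 53.4 of 158 in G2-S4.

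**Figure D4:**
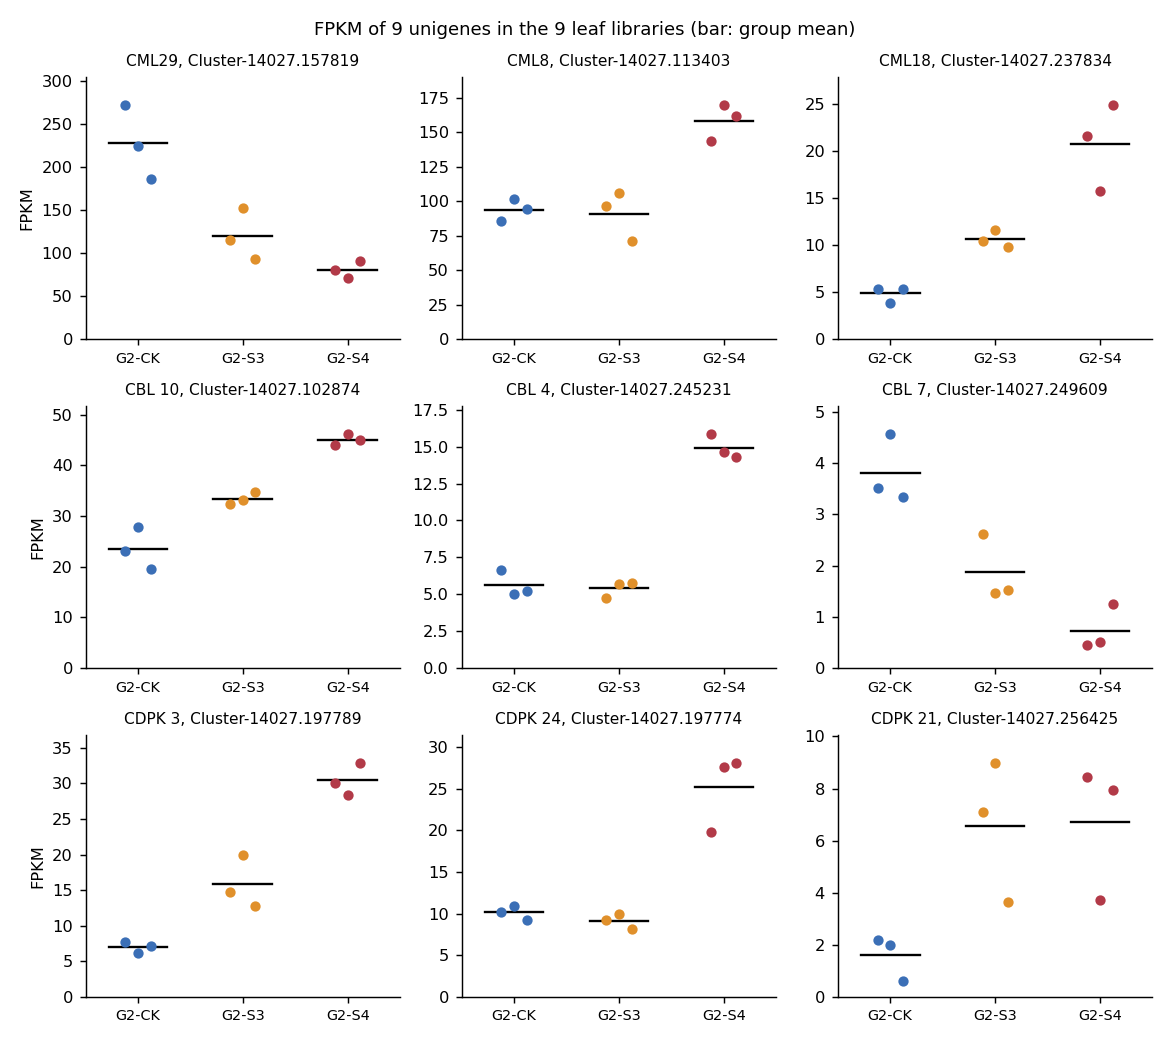
FPKM (y axis, starting at 0) in each of the 9 libraries of the unigene with the smallest adjusted p in S4/CK among the named unigenes of 9 protein names, by group (x axis), with points for libraries and bars for group means. CML18 and CDPK3 have intermediate values in G2-S3, CML8, CBL4 and CDPK24 stay at the control level in G2-S3, and CDPK21 has 3.63 to 8.98 FPKM in G2-S3 and, with 420 mM NaCl, 3.73 to 8.44, against 0.60 to 2.19 in G2-CK.

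Among the CDPKs, which phosphorylate their targets when calcium binds their own EF-hands, CDPK21 had the largest rise of the names called. In rice this kinase is known from plants that overexpress it and tolerate salt better. It took 4.16, 2.13 and 1.03 CPM in G2-CK, 12.4, 16.3 and 4.99 in G2-S3 and 14.4, 6.07 and 13.6 in G2-S4. The salt libraries varied among themselves by about 3-fold, and the 2 doses overlapped, but every salt library lay above every control. The log2 fold change was 2.20 ± 0.57 in S3/CK (adjusted p = 0.0328) and 2.22 ± 0.57 in S4/CK (adjusted p = 0.00995). The first was lost without G2-CK replicate 2 or 3 or G2-S3 replicate 1 or 2 and with only the 2 groups compared, where it was between 1.83 and 2.20. Cluster-14027.16311 had FPKM of 3.80, 1.14 and 1.18 in G2-CK, 11.1, 15.2 and 4.37 in G2-S3 and 13.03, 5.24 and 11.9 in G2-S4, and in Cluster-14027.256425 G2-S3 replicate 3 and G2-S4 replicate 2 were likewise the lowest of their groups.

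CDPK3 and CDPK24 had higher levels and moved more evenly. CDPK3 took 24.8, 21.8 and 25.7 CPM in G2-CK, 35.7, 38.5 and 27.9 in G2-S3 and 50.0, 58.7 and 62.9 in G2-S4, with no overlap between any of the groups. It rose by 0.50 ± 0.14 in S3/CK (adjusted p = 0.0376) and 1.25 ± 0.14 in S4/CK (adjusted p = 0.000101). The first was lost without any 1 of the G2-CK libraries, G2-S3 replicate 1 or 2 or G2-S4 replicate 2 and with only the 2 groups compared, with values between 0.40 and 0.55. Of its 10 tested unigenes 6 rose in S4/CK, among them Cluster-14027.197789 (7.71, 6.16 and 7.17 FPKM in G2-CK, 14.8, 19.9 and 12.7 in G2-S3 and 30.1, 28.4 and 32.9 in G2-S4). CDPK24, a kinase tied to cold tolerance in rice, took 18.7, 14.8 and 16.8 CPM in G2-CK, 19.1, 22.2 and 17.7 in G2-S3 and 30.4, 37.7 and 39.4 in G2-S4 (1.10 ± 0.14, adjusted p = 0.000196). Its unigene Cluster-14027.197774 stayed at 9.26 to 10.9 FPKM in G2-CK and 8.12 to 9.95 in G2-S3 and had 19.8, 27.6 and 28.1 in G2-S4. CDPK1 rose from 5.31, 2.99 and 2.63 CPM in G2-CK, with 3.78, 5.72 and 4.08 in G2-S3, to 8.68, 11.03 and 12.3 in G2-S4 (1.55 ± 0.28, adjusted p = 0.00178).

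CDPK4 fell. It had 37.8, 28.1 and 24.6 CPM in G2-CK, 15.6, 12.9 and 24.5 in G2-S3 and 17.3, 15.4 and 16.2 in G2-S4 (-0.89 ± 0.23 in S4/CK, adjusted p = 0.0111, and -0.77 ± 0.23 in S3/CK, adjusted p = 0.0535). The rice kinase of this name has also been overexpressed and tied to salt and drought tolerance. CDPK9 had 102, 95.1 and 96.6 CPM in G2-CK and 76.8, 74.1 and 68.6 in G2-S4 (-0.42 ± 0.11, adjusted p = 0.0110). CDPK22 had 14.1 to 15.9 CPM in G2-CK and 11.2 to 12.5 in G2-S4 (-0.34 ± 0.10, adjusted p = 0.0162), a call lost without G2-CK replicate 2 or G2-S4 replicate 1 and with only unigenes listed in all 9 libraries, where its value was between -0.18 and -0.30.

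Other CDPKs were high at the lower dose. CDPK6 had 11.7, 11.8 and 12.8 CPM in G2-CK, 15.4, 15.1 and 18.3 in G2-S3 and 11.8, 10.1 and 10.1 in G2-S4. It was called in S3/CK (0.42 ± 0.11, adjusted p = 0.0357) and in S4/S3 (-0.61 ± 0.11, adjusted p = 0.00376), the former in 6 of 16 alternatives and the latter in all. CDPK25 had 9.51, 7.58 and 8.58 CPM in G2-CK, 10.1, 12.9 and 13.1 in G2-S3 and 8.94, 8.96 and 8.26 in G2-S4, with 0.49 ± 0.14 in S3/CK (adjusted p = 0.0393), a call lost in 9 of 16 alternatives.

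Several CDPK names with many reads were not called in any comparison. CDPK5 took 97.5 to 142 CPM in G2-CK and 98.0 to 129 in G2-S3, against 112 to 116 in G2-S4, and CDPK12, which in rice promotes salt tolerance, 72.5 to 84.1, 65.9 to 84.6 and 74.4 to 101 CPM. Their log2 fold changes in S4/CK were -0.02 ± 0.15 and 0.19 ± 0.13. CDPK13, which in rice was overexpressed for cold and salt tolerance, had 47.8 to 71.6 CPM in G2-CK and 62.9 to 75.7 in G2-S4 (0.25 ± 0.16, adjusted p = 0.208), and CDPK15 59.3 to 82.9 and 50.2 to 66.7 (-0.35 ± 0.19, adjusted p = 0.159). Of all 144 CDPK unigenes tested, 17 rose and 18 fell in S4/CK (24.3% called, against 28.1% of all unigenes tested), with a median log2 fold change of -0.07. By FPKM the highest was Cluster-14027.118501, a fragment of 209 bp with too few reads for the test, followed by Cluster-14027.111427 of CDPK12 (38.1 to 44.0 FPKM in G2-CK and 37.2 to 50.3 in G2-S4) and Cluster-14027.160653 of CDPK20 (27.0 to 41.1 and 29.5 to 31.8), which were not called.

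The other members act beside the sensors. The Calcium/calmodulin-dependent serine/threonine-protein kinase 1, with 23 unigenes the name of most unigenes, had 72.6, 67.1 and 72.9 CPM in G2-CK, 58.4, 62.4 and 61.0 in G2-S3 and 66.4, 68.2 and 62.6 in G2-S4. Its fall in S3/CK (-0.23 ± 0.07, adjusted p = 0.0485) was lost in 13 of 16 alternatives. Of its 20 tested unigenes 2 were called higher and 4 lower in S4/CK, where 14.2% of all unigenes tested were called higher and 13.8% lower. Cluster-14027.124161 had 7.18, 8.77 and 10.4 FPKM in G2-CK and 10.4, 12.9 and 12.1 in G2-S4 (0.56 ± 0.16, adjusted p = 0.0218), while Cluster-14027.124159 had 3.23, 2.03 and 1.57 in G2-CK, 3.04, 2.67 and 2.21 in G2-S3 and 1.15, 0.96 and 0.75 in G2-S4 (-1.11 ± 0.33, adjusted p = 0.0299). Both calls were lost without G2-CK replicate 1 or 2 or G2-S4 replicate 2 or 3 and with no filter on low counts, with values between 0.44 and 0.58 and between -0.76 and -1.19. The Calmodulin-lysine N-methyltransferase, which methylates a lysine of calmodulin, rose from 2.89, 4.56 and 3.16 CPM in G2-CK, with 4.88, 4.96 and 4.62 in G2-S3, to 5.95, 6.99 and 5.43 in G2-S4 (0.79 ± 0.20, adjusted p = 0.00871), a call lost where only unigenes listed in all 9 libraries were summed (adjusted p = 0.190). The Calmodulin-interacting protein 111, an AAA-type ATPase of Arabidopsis, and the receptor-like kinase CRLK2 had log2 fold changes between -0.14 and 0.10 in the 3 comparisons and were not called.

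For 16 of the 85 names the members had best hits in more than 1 species. The sum then joins unigenes of different Swiss-Prot entries, which need not be different proteins. A sum per Swiss-Prot entry, an alternative chosen after the data were seen, separated them. The rice entry of CML22 had 6.97, 5.90 and 3.12 CPM in G2-CK, 4.50, 5.43 and 9.44 in G2-S3 and 0.85, 0.97 and 2.61 in G2-S4, with a log2 fold change of -1.84 ± 0.49 in S4/CK (adjusted p = 0.0121). The Arabidopsis entry of CML22 had 8.24, 6.98 and 6.57 CPM in G2-CK and 9.66, 9.88 and 10.4 in G2-S4, a rise of 0.46 ± 0.17 (adjusted p = 0.0464), and the joint sum was not called (-0.13 ± 0.17). The rice entry of CDPK9 fell from 52.2, 41.5 and 44.6 CPM in G2-CK to 27.0, 23.5 and 19.8 in G2-S4 (-0.97 ± 0.23, adjusted p = 0.00732), with 32.5, 24.02 and 48.8 in G2-S3, whereas its Arabidopsis entry kept within 46.6 and 53.6 CPM in all 9 libraries (-0.06 ± 0.06). For CDPK3 the rice entry rose by 1.36 ± 0.14 and the Arabidopsis entry by 0.53 ± 0.17. Of the 45 names with a unigene called in S4/CK, 4 had unigenes called in both directions, namely CDPK13, CML22, Calmodulin and the Calcium/calmodulin-dependent serine/threonine-protein kinase 1. The share of such names over the whole table is not given here, so this count cannot be set against it.

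**Figure D5:**
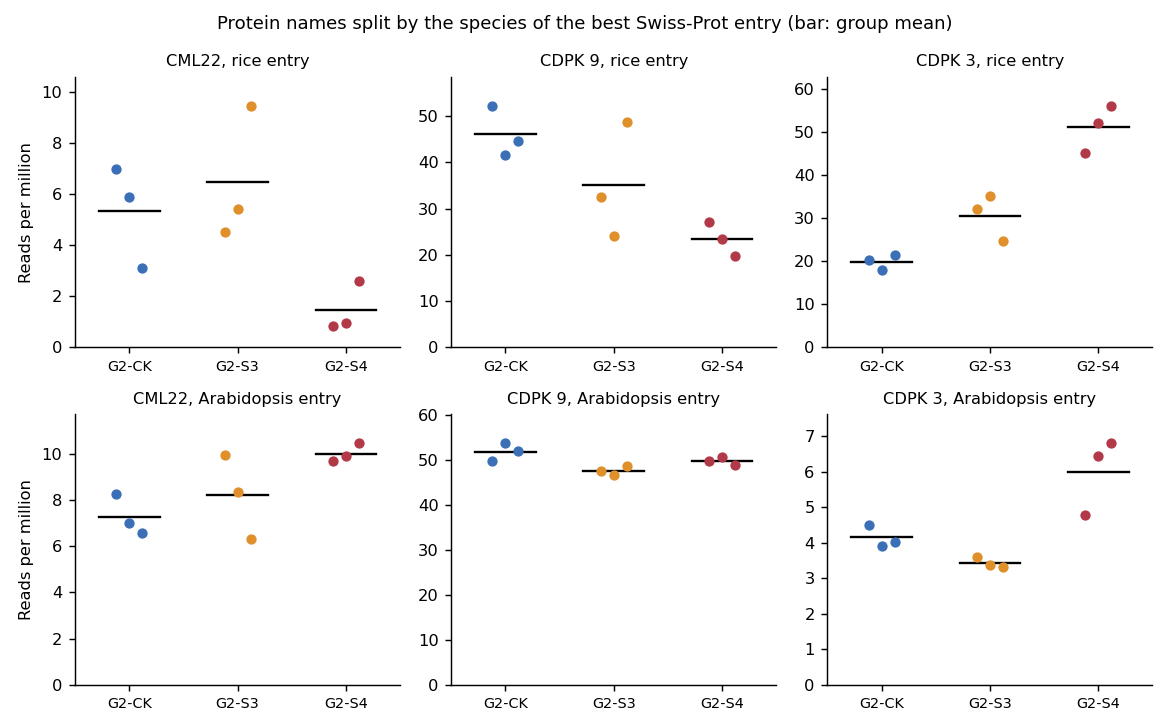
CPM (y axis, starting at 0) in each of the 9 libraries of CML22, CDPK9 and CDPK3, split into the unigenes whose best hit was the rice entry (upper row) and the Arabidopsis entry (lower row), with points for libraries and bars for group means. In S4/CK the rice entry of CML22 has a log2 fold change of -1.84 and its Arabidopsis entry one of 0.46, and the Arabidopsis entry of CDPK9 lies between 46.6 and 53.6 in all libraries.

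A few members were listed in all libraries of a group and in none of another. Unlisted in all G2-CK libraries and listed in all G2-S4 libraries were 5 members (0.962%, against 1.73% of all 255855 unigenes), 2 of them the non-plant Calmodulin unigenes Cluster-1655.0 and Cluster-16552.0. The other 3 were Cluster-14027.49822 of CDPK1 (unlisted in G2-S3 replicates 2 and 3, 0.54, 1.19 and 0.77 FPKM in G2-S4), Cluster-14027.75172 of CML9 and Cluster-14027.121021 of CML22. Against the listing limit of 0.3 FPKM, their mean FPKM in G2-S4 was at least 2.78-fold higher for the CDPK1 unigene, at least 2.74-fold for the CML9 unigene and at least 1.58-fold for the CML22 unigene, which was not called. In the other direction 9 members (1.73%, against 2.27% of all unigenes) were listed in all G2-CK and in no G2-S4 library, with Cluster-14027.249617 of CBL7 at least 3.16-fold lower in G2-S4. These unigenes were picked by their listing after the values were seen.

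The partners of the sensors were read from lists of search terms on the same protein names. In S4/CK 28.1% of all unigenes tested were called, 14.2% higher and 13.8% lower, and the lists are read against these shares. Of 156 tested CBL-interacting kinase unigenes, 46 rose and 26 fell in S4/CK (46.2% called), with a median log2 fold change of 0.36. In S3/CK 16 of them rose and 16 fell (20.5%, against 5.75% of all unigenes tested). Of 10 tested unigenes of the exchanger SOS1, 5 rose and none fell in S4/CK (median 0.56), and 3 of 10 rose in S4/S3, where 14.1% of all unigenes tested were called. In S3/CK edgeR called none of them, with 2 at an unadjusted p under 0.05, and DESeq2 none. The CDPK-related kinases, which carry degenerate EF-hands, had 8 of 24 unigenes lower and none higher in S4/CK (median -0.53). Calmodulin-binding transcription activators had 16 higher and 1 lower of 56 (30.4% called), and IQ-domain proteins, which bind calmodulin, 6 higher and 3 lower of 54 (16.7%). NADPH oxidases, which carry EF-hands and are phosphorylated by CDPKs in other plants, had 13 higher and 3 lower of 36 (44.4%). The medians of the last 3 lists were 0.09, -0.02 and 0.49.

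On the routes by which calcium moves, calcium pumps had 23 higher and 1 lower of 90 tested unigenes in S4/CK (median 0.44), hyperosmolality-gated channels 17 higher and 5 lower of 55 (median 0.36), and mechanosensitive channels 5 higher and none lower of 20. Glutamate receptors had 11 higher and 25 lower of 90 (median -0.31), cyclic nucleotide-gated channels 12 higher and 13 lower of 100, calcium exchangers 9 higher and 4 lower of 54, annexins 9 higher and 7 lower of 31, and two-pore channels 1 higher of 16. Slow anion channels, which CDPKs activate in Arabidopsis guard cells, had 15 higher and 3 lower of 28 (median 0.96), and the calcium-binding chaperones calreticulin and calnexin 2 higher and 10 lower of 32. These shares are read against the 28.1% of all unigenes called in this comparison (14.2% higher and 13.8% lower), and the median of -0.03.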

How the data were processed

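Polyadenylated RNA of 9 leaf libraries was sequenced in paired ends on an Illumina platform (CASAVA 1.8 per the submitters' processing notes). By the study's methods, the authors assembled the reads de novo with Trinity, clustered transcripts with Corset, kept the longest of each cluster as the unigene, aligned the reads of every library to the unigenes (bowtie2) and took read estimates from RSEM. The deposited lists hold an expected count and an FPKM value per unigene, with annotation, for unigenes above 0.3 FPKM. How the authors computed FPKM is not given in the sources used here.

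Expected counts were rounded to whole numbers. Library totals of 22999700 to 25671100 reads were fitted from count, FPKM and length, and the listed reads were 99.0 to 99.1% of them. Of all pairs of unigene and library 36.8% were missing. In the unigene test these were set to their upper limit of 0.3 FPKM (median 2.11 reads), and in sums to 0. Unigenes were filtered with filterByExpr at a minimum count of 10, normalised by TMM and tested with edgeR 4.0.16 (glmQLFit, glmQLFTest; R 4.3.3) with group means over all 9 libraries. P-values were adjusted after Benjamini-Hochberg over 127209 unigenes or 12233 protein names, at 0.05. CPM (counts-per-million) were scaled to the TMM-adjusted total. Labels call the 3 libraries of a group biological replicates, and the p-values measure the spread between them.

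The members and lists were chosen with earlier results of these data known. Named unigenes were, per comparison, up to 6 largest increases and decreases among called members of at least 1 CPM without overlap, and the 3 of highest FPKM per class. Named protein names were those called at a mean of at least 5 CPM and the 5 of highest CPM per class. Cluster-14027.113402, the second CML29 unigene, the unigenes named for their listing, CML35, CML22 and the entries were added after their values were seen. Alternatives were size factors of the DESeq2 type (RLE), DESeq2 1.42.0, no filter, other values for missing reads, unigenes listed in all 9 libraries, a log2 fold change of at least 1, a replicate block, 2 groups only, and each library left out. No sequences were used here.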

Additional observations from a re-analysis of the deposited data

Results flagged for a closer look

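For the following names and unigenes the response to the 2 doses differed, since the direct comparison S4/S3 was called by edgeR, the log2 fold changes against G2-CK had opposite signs and at least 1 of them was called. CML27, called in S4/S3 with opposite signs, is left out by the last condition. Names had a mean of at least 5 CPM, and unigenes at least 1 CPM and no overlap between the doses. Both doses share the G2-CK libraries, so the direct comparison is the test of the difference. Among protein names, the log2 fold change in S4/S3 was 0.82 for CML8, 0.33 for CML21, 0.46 for the soybean-type kinase SK5 and -0.61 for CDPK6. The S4/S3 call of SK5 was lost without G2-S3 replicate 3 or G2-S4 replicate 1 or 2 (0.35 to 0.47). Its S4/CK call was lost with size factors of the DESeq2 type, with DESeq2, and without G2-CK replicate 3 or G2-S4 replicate 1 or 2 (0.30 to 0.40). An opposite sign can rest on a small value that was not called, as for CML8 in S3/CK (given above) and CDPK6 in S4/CK (-0.18 ± 0.11).

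Among unigenes, the log2 fold change in S4/S3 was 1.62 for Cluster-14027.205685 (CBL10), 1.48 for Cluster-14027.257981 (CBL4), 1.51 for Cluster-14027.197774 (CDPK24), 0.80 for Cluster-14027.113402 (CML8), 0.81 for Cluster-14027.49821 (CDPK3, Arabidopsis entry) and 0.50 for Cluster-14027.207396 (CDPK13). It was -2.21 for Cluster-14027.112526 and -2.18 for Cluster-14027.140417, both of the rice entry of CML22, and -1.52 for Cluster-14027.178826 (Calmodulin-like protein 11). The Calcium/calmodulin-dependent serine/threonine-protein kinase 1 had a unigene on each side, with 0.81 for Cluster-14027.124161 and -1.39 for Cluster-14027.124159. Of these S4/S3 calls, that of Cluster-14027.112526 was lost without G2-S4 replicate 1 or 2 (-2.03 and -2.05) and with missing values as 0 (-3.20), and that of Cluster-14027.140417 without G2-S3 replicate 3 or G2-S4 replicate 1 or 2 and with no filter on low counts (-1.79 to -2.17). Cluster-14027.178826 lost it without G2-S4 replicate 1 or 3 and with missing values as 0 (-1.26 to -1.52), Cluster-14027.124159 without G2-S3 replicate 1 or G2-S4 replicate 2 or 3 (-1.24 to -1.39), Cluster-14027.207396 without G2-S3 replicate 1 or G2-S4 replicate 2 or 3 (0.42 to 0.54), and Cluster-14027.49821 without G2-S4 replicate 2 (0.76).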

How the results depend on the processing

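Counts for S3/CK moved most. Against 19 called members, 6 were called with no filter on low counts, 6 with missing values as 0 and 11 with only the 2 groups compared, and against 10 called names, 4 with only the 2 groups compared. Leaving out each library in turn gave 1 to 27 members and 0 to 15 names in S3/CK, 68 to 106 and 25 to 33 in S4/CK, and 23 to 37 and 13 to 20 in S4/S3. Requiring a log2 fold change of at least 1 left 60 members in S4/CK and 24 in S4/S3, and 3, 11 and 4 names in S3/CK, S4/CK and S4/S3. Counts over the whole table are not given for these alternatives or for the replicate block below. Whether the members moved more than all unigenes or names therefore cannot be read from them. No called log2 fold change of a named unigene or protein name changed sign under any alternative, while the balance of called names in S3/CK went from 6 higher and 4 lower to 4 higher and 7 lower with size factors of the DESeq2 type and to 6 higher and 7 lower with DESeq2. Of the named calls, 17 of 27 names and 16 of 28 unigenes in S4/CK held under all 16 alternatives, against 0 of 9 and 1 of 11 in S3/CK. These 16 leave out the required log2 fold change of at least 1, here and wherever a call is said to hold. With size factors of the DESeq2 type the median over all names in S4/CK moved from 0.09 to -0.00, and the share of higher calls over all names from 61.3% to 51.1%. Summed per Swiss-Prot entry, an alternative chosen after seeing the data, 10, 36 and 22 entries of the members were called. The share called over all entries is not given here, so these counts cannot be set against the whole table. Where a value was missing, depth limits the fold to the listing limit of 0.3 FPKM.

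The replicate numbers did not pair the samples. By the study's methods the pots stood in randomized blocks, and the sources used here do not tie the numbers to blocks. Deviations from the group means correlated by -0.11 to 0.04 between libraries of the same number and by -0.06 to 0.09 between others. With the replicate block, 9, 84 and 33 members and 2, 30 and 15 names were called in S3/CK, S4/CK and S4/S3. Under it CBL7, CDPK21, CDPK3, CDPK6, CDPK25, CML48 and the Calcium/calmodulin-dependent serine/threonine-protein kinase 1 were not called in S3/CK. The sum of Calmodulin, Cluster-14027.171208 and Cluster-14027.178826 were not called in S4/CK, where Calmodulin-6 was called lower (adjusted p = 0.0430). CBL7, CML30, CDPK25, Calmodulin-2, Cluster-14027.261977, Cluster-14027.209414 and Cluster-14027.207396 were not called in S4/S3.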
